A study of Homo sapiens with 22 samples.

Results

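The question here was whether a lentivirus against SPINK1 changed transcript signals by the same amount in a pair of ovarian clear cell carcinoma lines, JHOC5 and JHOC9. The arrays were chosen by their titles: 16 of the 22 arrays carried either the SPINK1 knockdown virus (KD #9) or the NT control virus. Each line had 3 SPINK1 KD arrays and 5 NT arrays. The other 6 arrays, 3 per line, carried a virus against IL-6 (KD#58), and served for a level in each line that the comparison did not use. All arrays came from established lines grown in 35 mm dishes and infected with lentivirus, so the controls carried a virus too. JHOC9 was kept in medium with 20% serum and JHOC5 with 10%, so line and serum cannot be told apart in any value below. There was 1 virus per target. NT arrays were placed in Experiments A to E by their titles, while knockdown arrays had a replicate letter alone: a, b and c for SPINK1 KD in JHOC9, and c, d and e in JHOC5. The labels do not say whether these were separate cultures, and p-values therefore reflect only how these arrays scatter, which may be technical.

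SPINK1 encodes a small secreted protein that inhibits trypsin, known best from the pancreas, where it restrains trypsin that has become active too early. Many carcinomas also make it. A knockdown virus delivers a short hairpin RNA or a similar agent that lowers the level of its target, and an NT virus is a control for infection. Ovarian clear cell carcinoma is a subtype of epithelial ovarian cancer, and cell lines of it differ from each other in their genetics and expression.

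The array measured 65526 transcript clusters, its units for a transcribed region, each with an ID and no gene name in the files. Clusters are therefore given by ID or counted, and the levels of SPINK1, of IL-6 and of marker genes were not analysed here, so neither the knockdown nor the labelled cell type was checked. Signals are on the log2 scale, on which a difference of 1 is a 2-fold difference. The array medians lay between 4.78 and 4.95, and clusters varied within a group with a median SD of 0.0907 to 0.117, depending on the group. Precision is limited by the number of arrays.

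Between the lines, the change made by the SPINK1 virus differed for 813 clusters, 1.24% of those tested, with a limma adjusted p under 0.05 for (JHOC5 SPINK1 KD minus JHOC5 NT) minus (JHOC9 SPINK1 KD minus JHOC9 NT). Of these, 673 (1.03% of those tested) had a negative difference, where the signal changed downwards in JHOC5 relative to JHOC9, and 140 (0.214%) had a positive one. In the 673, the change in JHOC5 had a median of -0.84, with quartiles of -1.14 and -0.59, while the change in JHOC9 had a median of -0.16, with quartiles of -0.26 and -0.04. In the 140, the change in JHOC5 had a median of 0.54 and that in JHOC9 a median of 0.01. Of the 813 clusters, 7 had a larger absolute change in JHOC9, against 22832 of all 65526. The 813 were chosen for their difference, so this is a description of them.

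The differences themselves ranged from -2.09 to -0.31 in the negative group, with a median of -0.68 and a median SE of 0.127. They ranged from 0.29 to 1.29 in the positive group, with a median of 0.53. Over all clusters the median difference was 0.049 and the median SE 0.122. A difference of 2-fold or more was called for 117 clusters in the negative direction (0.179% of those tested) and 11 in the positive one (0.0168%). In the negative group 250 differences were smaller than 1.5-fold, and in the positive group 86. At an unadjusted p under 0.05, 6093 clusters (9.3%) differed. The balance of directions depended on the setting: centring each array on its median gave 56 positive and 562 negative calls, and array weights gave 1574 and 2047. Without 1 of JHOC9 SPINK1 KD replicates a or b, or JHOC5 SPINK1 KD replicates d or e, 539, 449, 442 and 442 clusters were called, in that order. With the NT arrays limited to the letters of the knockdown arrays of their line, an alternative chosen after seeing the data, 331 were called, 292 of them negative.

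Each line's own test gave different numbers of calls. In JHOC5, 4284 clusters (6.54%) changed with the SPINK1 virus, 1753 upwards (2.68%) and 2531 downwards (3.86%). Centring gave 925 upwards and 2501 downwards, array weights gave 3631 and 3416, and the total was 2771 or 2624 without SPINK1 KD replicate d or e. In JHOC9, 55 clusters (0.0839%) changed, 9 upwards (0.0137%) and 46 downwards (0.0702%), and the count was 120 with the replicate letter as a block. It was 13 with centred arrays (0 upwards), 19 with the spread estimated per line, 22 with same-letter NT arrays, 36 with cyclic loess and 2948 with array weights (1419 upwards, 1529 downwards). Leaving out SPINK1 KD replicate a or b gave 25 or 27, and leaving out the NT array a, b or e gave 36, 34 or 35. Without SPINK1 KD replicate c, 23 went upwards and 21 downwards. At an unadjusted p under 0.05 the JHOC9 count was 3243, 4.95% of clusters. Of the 4284 JHOC5 calls, 18.8% also differed between the lines. For the rest, a call in JHOC5 and none in JHOC9 does not show that the lines differed.

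**Figure D1:**
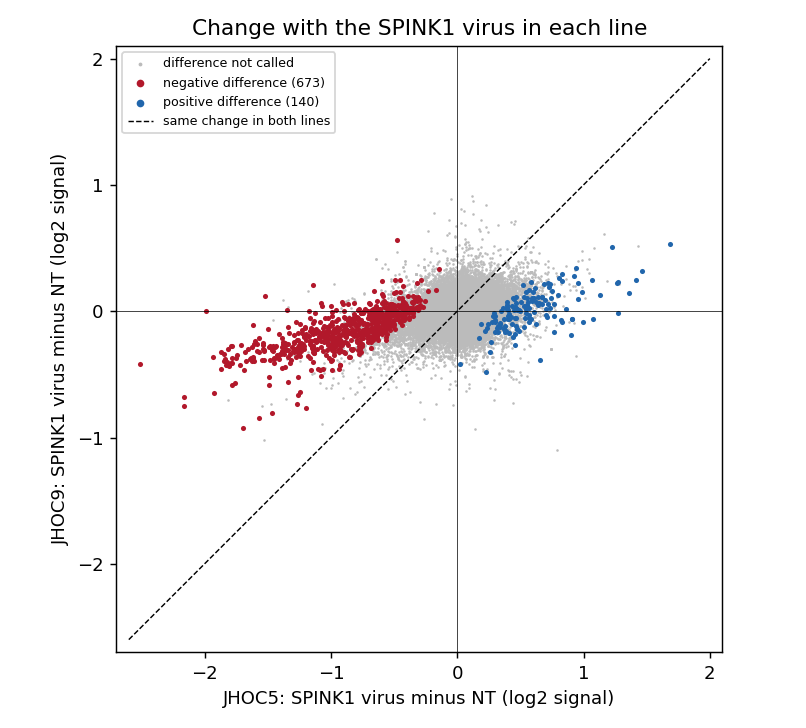
Change with the SPINK1 virus in JHOC9 against the change in JHOC5, both as log2 differences of group means, with all clusters in grey and the clusters whose changes differed in colour. The coloured points spread along the JHOC5 axis, with medians of -0.84 and 0.54, and lie close to 0 on the JHOC9 axis, with medians of -0.16 and 0.01.

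Of the 813 clusters, 806 were called in JHOC5 and 7 were not. In the negative group 670 were called as lower in JHOC5, 24 were called as lower in JHOC9 and 0 as higher in JHOC9. In the positive group 136 were called as higher in JHOC5, while 1 was called as higher and 2 as lower in JHOC9. The JHOC9 change was under 0.25 in absolute size for 483 of the 673 negative clusters (71.8%) and for 127 of the 140 positive ones (90.7%), against 97.3% of all clusters. A small change in JHOC9 is thus a common feature of the array as a whole. The negative group held a larger share of clusters with a JHOC9 change above that size than all clusters did. It was also brighter, with 88.9% above the array median in both lines' NT arrays, against 48% of all clusters. These shares were not compared at equal brightness.

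The sign in JHOC9 followed that in JHOC5 in the negative group more often than in the positive group. Of the 673 negative clusters, 564 had a JHOC9 change of the same sign as the JHOC5 change and 109 of the opposite sign. For 412 of the 564, the JHOC9 change was less than 0.25 of the JHOC5 change, for 145 it was 0.25 to 0.5 of it, and for 7 it was 0.5 to 1 of it. In the positive group 73 had the same sign and 67 the opposite sign, against 35158 and 30368 of all clusters. Choosing clusters for their difference favours JHOC9 changes that are small or of opposite sign. Among all JHOC5 rises called, 81%, 86.9%, 75% and 89.5% had the same sign in JHOC9, from the smallest class of change to the largest. Among all falls called the shares were 75.7%, 85.6%, 94.5%, 96.2% and 98.3%. The difference in this share between the negative and positive groups was not tested.

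The share of JHOC5 calls that differed between the lines was higher where the JHOC5 change was larger. Among the 58 clusters called in JHOC5 with a change below -1.5, 94.8% differed, and their JHOC9 change had a median of -0.37. Of these 58, 57 changed in the same direction in JHOC9. Among the 211 with a change from -1.5 to -1, 84.4% differed and the JHOC9 median was -0.27. The JHOC9 median came to -0.20 for the 256 clusters from -1 to -0.75, of which 61.3% differed. It came to -0.13 for the 568 from -0.75 to -0.5, of which 34% differed, and to -0.05 for the 1438 from -0.5 to 0, of which 6.05% differed.

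The rises had the same order. The JHOC9 median was 0.07 for the 1422 JHOC5 calls from 0 to 0.5, of which 4.15% differed, and 0.15 for the 268 from 0.5 to 0.75, of which 17.2% differed. It was 0.18 for the 44 from 0.75 to 1, of which 45.5% differed. For the 19 clusters that rose by at least 1 in JHOC5, the JHOC9 median was 0.25, 17 had the same direction in JHOC9, and 57.9% differed. A larger JHOC5 change thus went with a larger JHOC9 change in the same direction, at a fraction of its size. These are counts among clusters chosen for their JHOC5 change, which is part of the difference.

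The individual arrays gave the same order as the group means. For the 673 negative clusters, the median signal relative to the NT mean of the line was -0.67, -0.88 and -0.94 in JHOC5 SPINK1 KD replicates c, d and e. In JHOC9 SPINK1 KD replicates a, b and c it was -0.17, -0.12 and -0.18. The NT arrays lay between -0.07 and 0.07 in JHOC5 and between -0.06 and 0.07 in JHOC9. All 3 JHOC5 knockdown arrays lay far below the others, and the JHOC9 knockdown arrays lay a little below their own NT arrays. These clusters were chosen on these arrays, so the separation is a description.

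The IL-6 knockdown arrays did not enter that difference, but the NT means they are set against here did. Their values relative to NT are thus not free of the choice of clusters. In the IL-6 knockdown arrays the median for the same 673 clusters was -0.12, -0.05 and 0.05 in JHOC5 replicates a, b and c, and -0.18, -0.10 and -0.23 in JHOC9 replicates b, d and e. The JHOC9 arrays with the IL-6 virus were thus about as low as those with the SPINK1 virus. In JHOC5, replicates b and c with the IL-6 virus lay within the NT range of -0.07 to 0.07, and replicate a lay below it. For the 140 positive clusters, the JHOC5 SPINK1 KD arrays had medians of 0.48, 0.54 and 0.56, and each of the JHOC9 SPINK1 KD arrays had a median of 0. With the IL-6 virus these clusters lay between 0.03 and 0.06 in JHOC5 and between -0.02 and 0.04 in JHOC9.

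**Figure D2:**
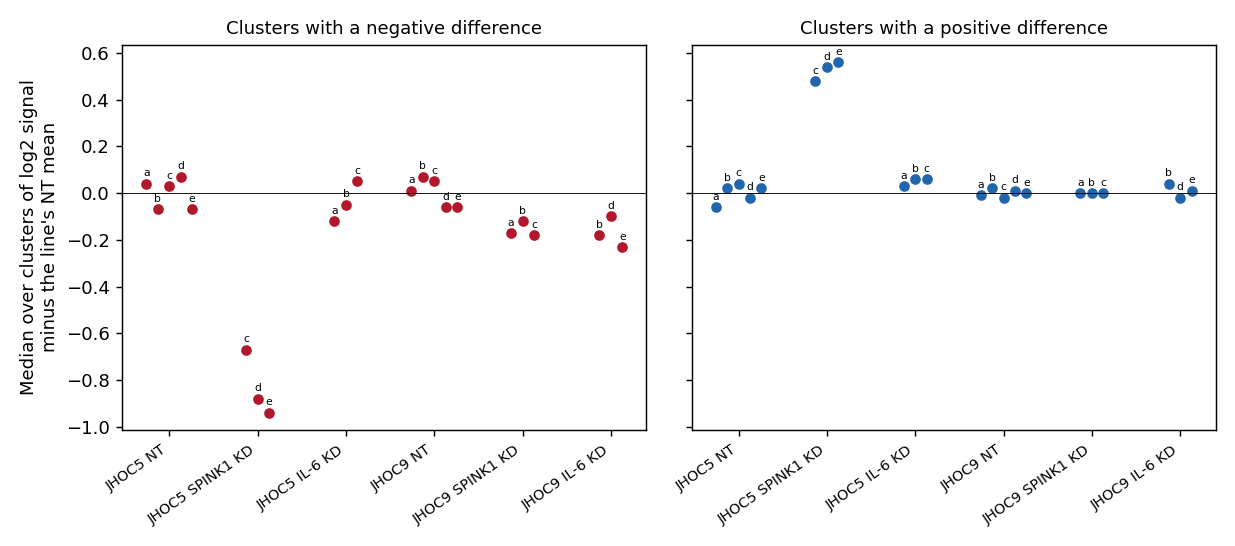
Median log2 signal of the 673 negative and the 140 positive clusters in each of the 22 arrays, relative to the mean of the NT arrays of the same line, with 1 point per array. The 3 JHOC5 SPINK1 KD arrays stand apart at -0.94 to -0.67 and at 0.48 to 0.56, and the other arrays lie between -0.23 and 0.07.

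The replicate letters of the SPINK1 KD arrays were not the same in the lines, and c was the letter they shared. Against the NT array with its own letter, the median of the 673 clusters was -0.7 in JHOC5 and -0.24 in JHOC9 at letter c. At the other letters it was -0.96 and -0.88 in JHOC5 (d and e) and -0.16 and -0.19 in JHOC9 (a and b). All 673 clusters were below their same-letter NT array at each of the JHOC5 letters. This restates their choice, since all had JHOC5 knockdown arrays below the whole NT range. In JHOC9, 546, 584 and 594 were below at a, b and c, against 35067, 30145 and 23709 of all 65526 clusters. Over all clusters the letter c median was 0.04 in JHOC5 and 0.06 in JHOC9. The clusters were chosen on these arrays, so the same-letter values are a description. For the 140 positive clusters the letter c median was 0.44 in JHOC5 and 0.04 in JHOC9.

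Non-overlap of arrays was read against its share over all clusters. In JHOC5, all 3 SPINK1 KD arrays lay below all 5 NT arrays for 3940 of all clusters (6.01%) and above them for 6163 (9.41%). In JHOC9 these counts were 1206 (1.84%) and 1151 (1.76%). All 673 negative clusters had JHOC5 knockdown arrays below the NT range, and 252 of them had JHOC9 knockdown arrays below it, with 6 above. Of the 140 positive clusters, 136 had all JHOC5 knockdown arrays above the NT range, while in JHOC9 15 lay above it and 12 below. The JHOC5 numbers restate how the clusters were chosen.

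Clusters with a negative difference were brighter with NT than most clusters on the array. Their NT signal had a median of 7.57 in JHOC5, with quartiles of 6.73 and 8.46, and of 7.21 in JHOC9, with quartiles of 6.09 and 8.15. Over all clusters the NT medians were 4.82 and 4.87. Of the 673, 598 (88.9%) lay above the array median in both lines, 54 (8.02%) in JHOC5 alone, 0 in JHOC9 alone and 21 (3.12%) in neither. Over all clusters these shares were 48%, 2.01%, 1.97% and 48%. Most of the negative clusters were thus also measured above the median in JHOC9.

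The NT signal of the negative group was more often higher in JHOC5 than in JHOC9. The gap, JHOC5 NT minus JHOC9 NT, had a median of 0.42 and quartiles of 0.01 and 0.87, against a median of -0.05 over all clusters. It was above 0 for 506 of the 673 (75.2%), against 34.6% of all clusters. A gap of at least 2-fold in favour of JHOC5 was found for 142 (21.1%, against 2.19% of all clusters), and in favour of JHOC9 for 11 (1.63%, against 2.06%). The 5 NT arrays of JHOC5 lay above the 5 of JHOC9 for 399, below them for 83, and overlapped for 191. Over all clusters these counts were 7313, 9335 and 48878. The NT arrays are part of the difference that chose these clusters, so these NT gaps carry no test.

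With the SPINK1 virus the gap of the negative group turned to a median of -0.30. Of the 673, 289 were higher in JHOC5 with NT and lower in JHOC5 with the SPINK1 virus. A further 217 were higher in JHOC5 with both viruses, with a smaller gap, and 167 were lower in JHOC5 with both, with a larger gap. In absolute terms the lines were closer together with the SPINK1 virus for 369 clusters and farther apart for 304, against 34201 and 31325 of all clusters. The sign of the difference, by which these clusters were chosen, fixes the direction in which each gap moved. The median signal with the SPINK1 virus was 6.64 in JHOC5 and 7.05 in JHOC9, against 7.53 and 6.98 with the IL-6 virus.

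The positive group was nearer to even between the lines than the negative group. Its NT signal had a median of 6.30 in JHOC5 and 6.03 in JHOC9, and its median gap was 0.06. The gap was above 0 for 74 of the 140 (52.9%), against 34.6% of all clusters. It was at least 2-fold in favour of JHOC5 for 12 (8.57%, against 2.19% of all clusters). In favour of JHOC9 it was at least 2-fold for 7 (5%, against 2.06%). Gaps of that size were thus more frequent than over all clusters. The NT arrays of JHOC5 lay above those of JHOC9 for 51, below for 37 and overlapped for 52. Over all 65526 clusters these counts were 7313, 9335 and 48878. These NT gaps carry no test either. Of the 140, 93 (66.4%) were above the array median in both lines, 8 in JHOC5 alone, 3 in JHOC9 alone and 36 (25.7%) in neither.

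With the SPINK1 virus the median gap of the positive group was 0.55. For 49 clusters the order of the lines turned, from lower to higher in JHOC5, 74 were higher in JHOC5 with both viruses and farther apart, and 17 were lower with both and closer. The lines were farther apart for 105 and closer for 35, again with the direction of each gap's movement fixed by the choice of clusters.

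**Figure D3:**
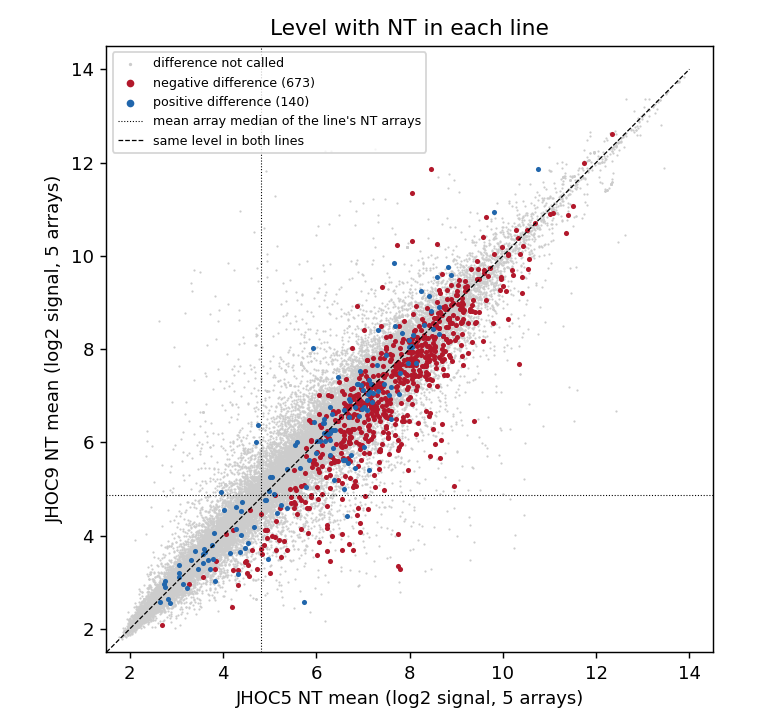
Mean log2 signal in the JHOC9 NT arrays against that in the JHOC5 NT arrays, 5 arrays each, with all clusters in grey and the clusters whose response differed in colour. The negative clusters lie at higher signal than most clusters, with medians of 7.57 in JHOC5 and 7.21 in JHOC9, and more of them lie on the JHOC5 side.

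The IL-6 knockdown arrays gave a level in each line from other arrays, although the fit shares 1 estimate of spread per cluster. Between the lines, 16610 clusters (25.3%) differed in these arrays, 7284 higher in JHOC5 (11.1%) and 9326 higher in JHOC9 (14.2%). Of the 673 negative clusters, 452 (67.2%) were called as higher in JHOC5 and 61 (9.06%) as higher in JHOC9, and their median gap was 0.55. With NT it was 0.42. Relative to NT, the 673 changed with the IL-6 virus by a median of -0.04 in JHOC5 and -0.17 in JHOC9. The gap in these arrays thus includes any change made by the IL-6 virus. Of the 140 positive clusters, 57 (40.7%) were called as higher in JHOC5 and 31 (22.1%) as higher in JHOC9. Centring each array on its median turned the balance over all clusters to 8812 higher in JHOC5 and 5953 higher in JHOC9, and cyclic loess to 8564 and 6827. Of the 673, these settings called 470 and 464 as higher in JHOC5 and 44 and 58 as higher in JHOC9.

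Sorted by this gap in the IL-6 knockdown arrays, negative differences were more frequent among clusters that were higher in JHOC5. Among the 1524 clusters at least 2-fold higher in JHOC5, 11.8% (180 clusters) had a negative difference and 0.919% a positive one. From 0.25 to 1 the shares were 4.54% and 0.648% of 6169 clusters, and within 0.25 of no gap they were 0.321% and 0.12% of 46726. From -1 to -0.25 they were 0.521% and 0.235%, and among the 1311 clusters at least 2-fold higher in JHOC9 they were 0.915% and 0.534%. Both extremes thus held more differences than the middle, and the share on the JHOC5 side was the higher for the negative direction.

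The same order was found among clusters above the array median in both lines. There the shares with a negative difference were 1.32%, 0.811%, 0.78%, 5.5% and 13.5% from the JHOC9 side to the JHOC5 side. For all clusters, the gap was also taken after centring arrays on their median or cyclic loess, with the negative calls kept from the deposited values. With centring, 11.5% of the clusters at least 2-fold higher in JHOC5 and 0.266% of those within 0.25 of no gap had a negative difference. With cyclic loess the shares were 11.6% and 0.299%, and the calls themselves were not remade for these shares. Signal, line and serum move together in these shares, and their separate parts in the result were not tested.

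**Figure D4:**
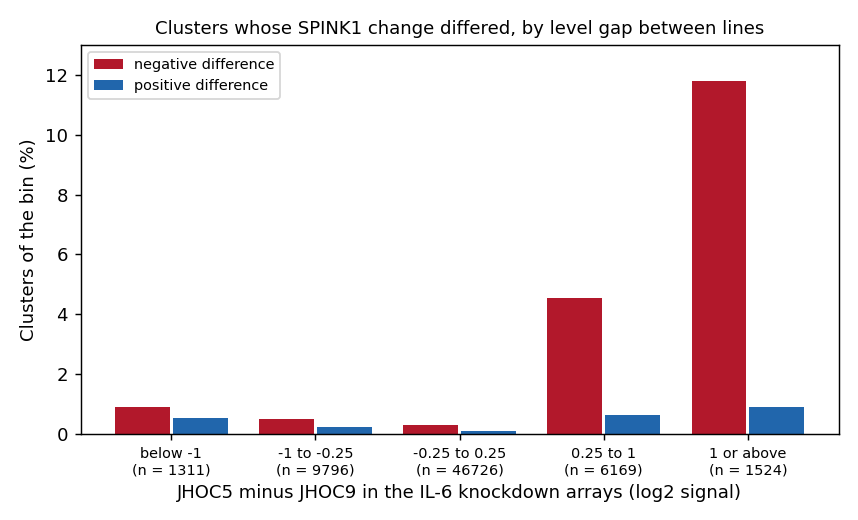
Share of clusters, in percent, with a negative or a positive difference in SPINK1 response, by the log2 gap between the lines in the IL-6 knockdown arrays (JHOC5 minus JHOC9). The negative share is 11.8% where JHOC5 was at least 2-fold higher and 0.321% where the lines were within 0.25.

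Brightness also went with the number of calls. Of the 23027 clusters with a mean signal under 4 over the 22 arrays, 0.0695% had a negative difference and 0.109% a positive one. The shares were 0.494% and 0.154% from 4 to 6, 2.42% and 0.391% from 6 to 8, 4.14% and 0.482% from 8 to 10, and 2.01% and 0.251% at 10 or more. Negative differences outnumbered positive ones in each class but the dimmest.

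With the IL-6 virus in place of NT as the reference, the difference between lines was called for 1453 clusters (2.22%), 305 positive (0.465%) and 1148 negative (1.75%). Centring gave 117 positive and 1238 negative calls, and array weights turned the balance to 6659 and 4020. The count was 911 with the replicate block, 907 without JHOC9 SPINK1 KD replicate b, 921 and 940 without JHOC5 SPINK1 KD replicates d and e, and 848 without JHOC5 IL-6 KD replicate c. This comparison shares the SPINK1 KD arrays with the first, so its values are given beside it and are no separate evidence. Of the 673 negative clusters, 563 were called as negative in it and 672 had a negative sign, with a median of -0.81. Of the 140 positive clusters, 67 were called as positive and 136 had a positive sign, with a median of 0.44. The IL-6 virus itself changed the 673 by a median of -0.04 in JHOC5 and -0.17 in JHOC9, and the 140 by 0.07 and 0. These changes are relative to the NT arrays, on which the clusters were also chosen.

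The clusters with the largest differences, with the 3 knockdown arrays outside the NT range in the line with the larger change, were TC01002412.hg.1 and TC03000846.hg.1 in the negative direction and TC06001338.hg.1 and TC20000868.hg.1 in the positive one. In JHOC5 the log2 signal of TC01002412.hg.1 was 9.24, 9.52, 9.25, 8.97 and 9.94 with NT and 6.92, 6.87 and 6.83 with the SPINK1 virus. In JHOC9 it was 6.32, 6.47, 6.41, 6.63 and 6.46 with NT and 5.94, 6.08 and 6.10 with the SPINK1 virus. The knockdown arrays lay below all NT arrays in both lines, with a far wider gap in JHOC5, and the JHOC5 knockdown arrays lay above every JHOC9 array. With the IL-6 virus it was 8.94, 9.33 and 8.69 in JHOC5 and 6.54, 6.39 and 6.64 in JHOC9.

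The mean of TC01002412.hg.1 went from 9.39 ± 0.36 (SD, n = 5) to 6.87 ± 0.05 (SD, n = 3) in JHOC5, and from 6.46 ± 0.11 to 6.04 ± 0.09 in JHOC9. The changes were -2.51 ± 0.15 (SE) in JHOC5 and -0.42 ± 0.15 in JHOC9, the second with a limma adjusted p of 0.765. The difference of the changes was -2.09 ± 0.22 (limma adjusted p = 4.99e-05, 95% interval -2.55 to -1.64).

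TC03000846.hg.1 was measured in JHOC5 at 6.38, 6.56, 6.48, 6.56 and 6.81 with NT and at 4.65, 4.49 and 4.58 with the SPINK1 virus. In JHOC9 it was 3.72, 3.66, 3.67, 3.77 and 3.68 with NT and 3.63, 3.70 and 3.77 with the SPINK1 virus. The JHOC5 groups did not overlap, whereas in JHOC9 the knockdown arrays spanned the NT range. All JHOC9 values lay below the array medians, and whether a fall could be measured at that level was not tested.

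The change of TC03000846.hg.1 was -1.99 ± 0.09 (SE) in JHOC5 and 0 ± 0.09 in JHOC9, and their difference was -1.98 ± 0.12 (limma adjusted p = 2.64e-08, 95% interval -2.24 to -1.73). With the IL-6 virus the mean was 6.45 ± 0.22 (SD, n = 3) in JHOC5 and 3.71 ± 0.03 in JHOC9, close to the NT means of 6.56 ± 0.16 and 3.70 ± 0.04.

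TC06001338.hg.1 was the largest positive difference among the clusters that met the rule. In JHOC5 its signal was 4.60, 4.79, 4.80, 5.18 and 5.44 with NT and 5.87, 6.44 and 6.40 with the SPINK1 virus. In JHOC9 it was 3.45, 3.40, 3.44, 3.57 and 3.61 with NT and 3.47, 3.44 and 3.52 with the SPINK1 virus. The knockdown arrays lay above NT in JHOC5 and within the NT range in JHOC9, where all values were below the array medians. The changes were 1.27 ± 0.15 (SE) and -0.02, and their difference was 1.29 ± 0.21 (limma adjusted p = 0.00204, 95% interval 0.85 to 1.73).

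TC20000868.hg.1 had NT means of 7.49 in JHOC5 and 7.87 in JHOC9, above the array medians in both lines. Its NT level was somewhat higher in JHOC9, with a smaller gap between the lines than in the other 3. In JHOC5 the signal was 7.40, 7.38, 7.74, 7.37 and 7.55 with NT and 8.58, 8.67 and 9.29 with the SPINK1 virus. In JHOC9 it was 8.01, 8.06, 7.72, 7.76 and 7.79 with NT and 8.27, 8.03 and 7.74 with the SPINK1 virus. The groups overlapped in JHOC9 and did not in JHOC5. The changes were 1.36 ± 0.14 (SE) and 0.15, and their difference was 1.21 ± 0.20 (limma adjusted p = 0.00193, 95% interval 0.80 to 1.62). With the IL-6 virus its mean was 7.41 ± 0.13 (SD, n = 3) in JHOC5 and 7.65 ± 0.02 in JHOC9.

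**Figure D5:**
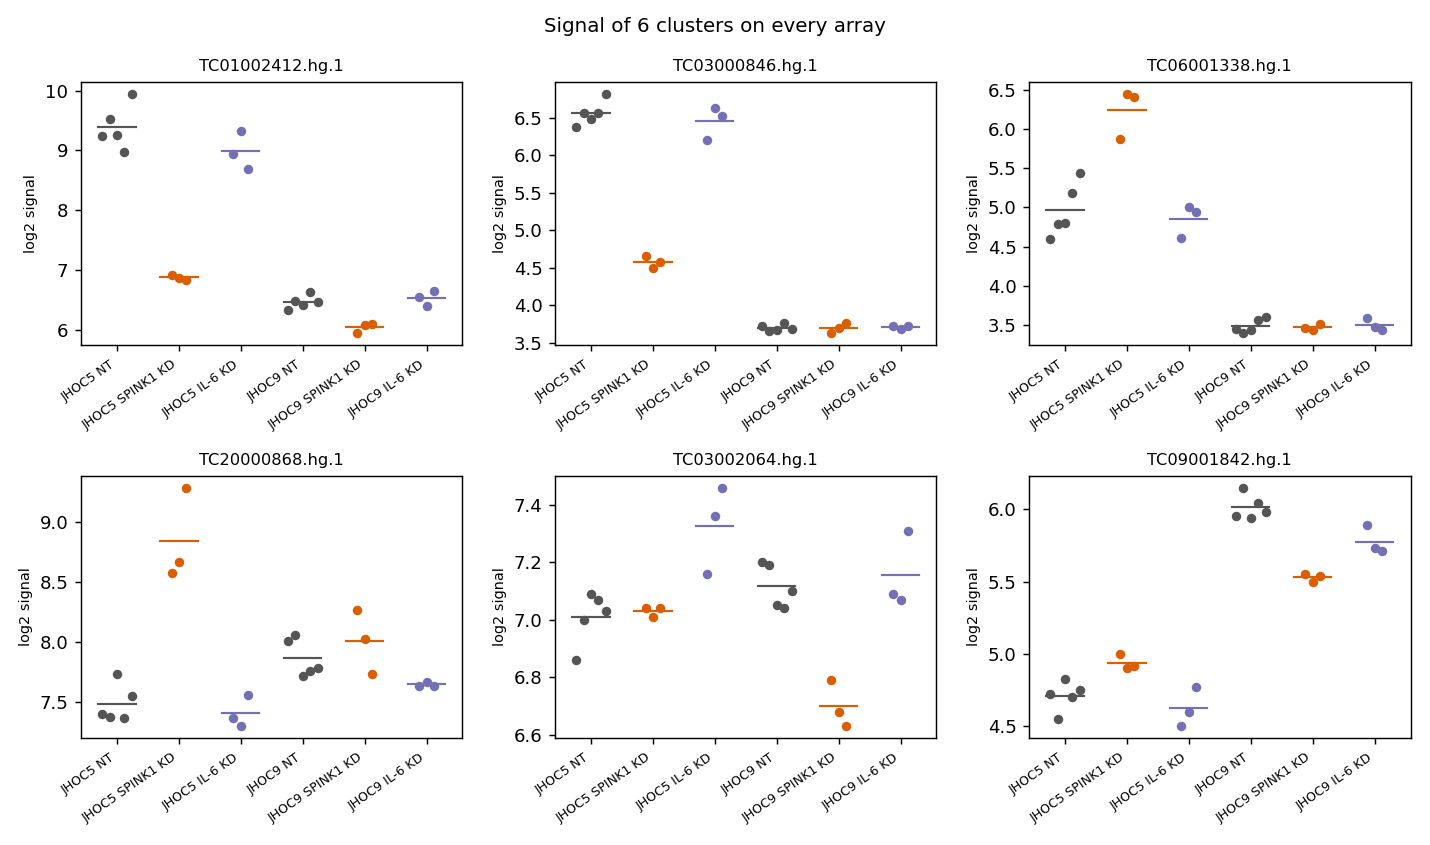
Log2 signal in each array of 6 clusters whose differences were called, by line and virus, with 1 point per array and bars at the group means. For TC01002412.hg.1 the JHOC5 mean falls from 9.39 with NT to 6.87 with the SPINK1 virus, while the JHOC9 mean moves from 6.46 to 6.04.

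Size alone did not make a call. Of the 153 clusters with a difference of at least 2-fold, 25 were not called. The largest positive difference of all was that of TC11000967.hg.1, at 1.89 ± 0.61 (SE, limma adjusted p = 0.204), a cluster chosen after its values were seen. Its NT signal ran from 5.71 to 8.19 in JHOC5 and from 5.96 to 7.96 in JHOC9, so its NT arrays spread more widely than the difference.

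Of the 7 clusters that differed without a call in JHOC5, 5 were called in neither line and 2 were called in JHOC9. Those 2, TC03002064.hg.1 and TC09001842.hg.1, were chosen after their values were seen. TC03002064.hg.1 was at 7.20, 7.19, 7.05, 7.04 and 7.10 with NT and at 6.79, 6.68 and 6.63 with the SPINK1 virus in JHOC9. In JHOC5 it was at 6.86, 7.0, 7.09, 7.07 and 7.03 with NT and at 7.04, 7.01 and 7.04 with the SPINK1 virus. The groups were apart in JHOC9 and overlapped in JHOC5. The change was -0.42 ± 0.07 (SE, limma adjusted p = 0.0286) in JHOC9 and 0.02 in JHOC5 (limma adjusted p = 0.917), and the difference was 0.44 ± 0.10 (limma adjusted p = 0.0394). Its call was lost in 16 of the 33 settings without a stricter threshold, centring, cyclic loess, same-letter NT arrays and most of the runs without 1 array among them, with adjusted p values from limma of up to 0.289. With the IL-6 virus its mean was 7.33 ± 0.16 (SD, n = 3) in JHOC5 and 7.16 ± 0.13 in JHOC9. The NT means were 7.01 and 7.12. With the IL-6 virus as the reference in place of NT, the difference was 0.16 ± 0.12 (SE, limma adjusted p = 0.56).

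TC09001842.hg.1 had mean changes of opposite sign in the lines, called in JHOC9 and not in JHOC5. In JHOC9 it was at 5.95, 6.15, 5.94, 6.04 and 5.98 with NT and at 5.55, 5.50 and 5.54 with the SPINK1 virus. In JHOC5 it was at 4.72, 4.55, 4.83, 4.70 and 4.75 with NT and at 5.0, 4.90 and 4.92 with the SPINK1 virus. No knockdown array overlapped the NT arrays of its line, below them in JHOC9 and above them in JHOC5. Over all clusters, 1.84% had JHOC9 knockdown arrays below the NT range and 9.41% had JHOC5 ones above it. The JHOC5 NT mean of TC09001842.hg.1 was 4.71, below the mean array median of 4.82 in that group. The change was -0.48 ± 0.07 (SE, limma adjusted p = 0.00388) in JHOC9 and 0.23 in JHOC5 (limma adjusted p = 0.0504). The difference was 0.71 ± 0.10 (limma adjusted p = 5.43e-04). With the IL-6 virus TC09001842.hg.1 was at 5.89, 5.73 and 5.71 in JHOC9, also below all NT arrays of that line. In JHOC5 it was at 4.5, 4.6 and 4.77 with the IL-6 virus. With the IL-6 virus as the reference in place of NT, the difference was 0.56 ± 0.11 (SE, limma adjusted p = 0.00625).

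The 55 JHOC9 calls mostly had a larger absolute change in JHOC5 when they were falls in JHOC9. Of the 46 clusters that fell in JHOC9, 39 had a larger absolute change in JHOC5, and 26 differed between the lines. Their median change was -0.47 in JHOC9 and -0.93 in JHOC5. Of the 9 that rose in JHOC9, 5 had a larger absolute change in JHOC5 and 1 differed, with medians of 0.38 and 0.42. Over all 65526 clusters, 22832 had the larger absolute change in JHOC9, and 1.24% differed. The JHOC9 calls were not tested against these shares. The clusters that differed and were called in both lines numbered 25.

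Cluster IDs carry a chromosome code after the letters TC, and the differences were spread over the codes. Over all clusters the share was 1.24%. Code 1 held 113 of its 6342 clusters (1.78%), code X had 1.67%, code 8 had 1.65% and code 12 had 1.6%. The lower shares included 0.561% for code 19 (15 of 2674), 0.564% for code 21 and 0.624% for code 22. Code 19 had 246 clusters called in JHOC5, 9.2% of its clusters and the highest share of the numbered codes, of which 5.69% differed between the lines, against 18.8% over all JHOC5 calls. The JHOC5 calls of code 19 had a median absolute change of 0.35. Among the numbered codes this median ran from 0.32 (code 21) to 0.49 (code 18). These shares are descriptions with no test. Code 20 had the highest share of positive differences among the numbered codes, 0.574% (10 clusters), against 0.214% over all clusters.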

How the data were processed

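Total RNA, 200 ng per array, was labelled with biotin and hybridised to a GeneChip Human Transcriptome Array, per the labels. The authors used RMA, per the submitters' processing notes; its software, annotation and build are each not given in the sources used here. Taking a cluster's log2 signal and subtracting the median of that cluster on the 22 arrays gives the deposited log2 values, to 2.06e-06. Another deposited table has linear intensity values from 2.81 to 15242, from which signal levels were taken. RMA normalizes across arrays, so an overall shift in RNA content may be hidden. Array medians still ran from 4.78 to 4.95, and centring them moved the balance of calls.

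Groups came from the titles. The 22 arrays entered 1 limma 3.58.1 model of 6 group means (R 4.3.3, version 1.17.8 of data.table, statmod 1.5.0) with eBayes, two-sided, with 16 residual and 4.22 prior degrees of freedom and Benjamini-Hochberg adjustment over 65526 clusters at 0.05. Of these clusters, 1034 repeat another, and 0 of them were called for the difference. Plots used matplotlib 3.10.9 and Python 3.11.15. Named clusters were the 2 largest positive and 2 largest negative called differences with all 3 knockdown arrays outside the NT range of the line with the larger change; planned gene lists and markers were not analysed here, since no file pairs cluster IDs with gene names. The comparison, rules and lists were chosen with earlier results of these data known.

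Same-lettered NT and SPINK1 KD arrays had deviations from their group means that correlated at 0.43, 0.32 and 0.20 in JHOC9 and at 0.27, 0.06 and 0.37 in JHOC5. All JHOC9 values lay above 0.1, so the count with the letter as a block is printed beside the JHOC9 count. Values named with the block come from that model, and all others come without a block. The highest correlation with another letter was larger for JHOC9 replicate c (0.44) and for JHOC5 replicates c and d (0.31 and 0.11). Alternatives covered the arrays in the model, the estimate of spread, the replicate block, dim and repeated clusters, normalization, array weights, the prior, thresholds and each array left out.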

Additional observations from a re-analysis of the deposited data

Results flagged for a closer look

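The test of the difference itself found that the SPINK1 virus changed 813 clusters unequally in the lines. The named ones had log2 differences, JHOC5 change minus JHOC9 change, of -2.09 for TC01002412.hg.1, -1.98 for TC03000846.hg.1, 1.29 for TC06001338.hg.1 and 1.21 for TC20000868.hg.1. The pair of clusters called in JHOC9 and not in JHOC5 had 0.44 (TC03002064.hg.1) and 0.71 (TC09001842.hg.1). In the 2 NT groups, of 5 arrays each, no NT array of these 6 clusters stood out from its group by Dixon's test, and groups of 3 were not tested.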

How the results depend on the processing

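The count of 813 differences was 128 at a 2-fold difference, 351 at an adjusted p under 0.01 and 3621 with array weights (1574 positive, 2047 negative), which gave JHOC9 SPINK1 KD replicate b a weight of 6.46 and replicates a and c 0.594 and 0.419. It was 331 (39 positive, 292 negative) with same-letter NT arrays, chosen after seeing the data, of which 312 were among the 813. Leaving out 1 array gave 442 to 1100. The replicate block gave 1151 (245 positive, 906 negative), of which 681 were shared, and the letters do not pair all arrays. The other settings gave 618 (centred arrays, 56 positive and 562 negative) to 915, and the negative direction had more calls in every setting run.

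The JHOC5 count of 4284 was 7047 with array weights (3631 higher, 3416 lower), 2553 at 0.01 and 288 at 2-fold. Centring gave 925 higher and 2501 lower. Leaving out 1 array gave 2624 to 4565, with 2771 and 2624 without SPINK1 KD replicates d and e. The JHOC9 count of 55 was 19 with the spread estimated per line, 120 with the replicate block (28 higher, 92 lower), 13 when centred (0 higher), 36 with cyclic loess, 2948 with array weights (1419 higher, 1529 lower), 24 at 0.01, 1 at 2-fold and 22 with same-letter NT arrays (0 higher). Leaving out 1 array gave 25 to 65: 25 and 27 without SPINK1 KD replicates a and b, and 36, 34 and 35 without the NT arrays a, b and e. Without SPINK1 KD replicate c, 23 were higher and 21 lower.

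The line difference in IL-6 knockdown arrays, 16610, was 2823 at 2-fold (1524 higher in JHOC5, 1299 in JHOC9) and 13298 to 19669 without 1 array, and it cannot be estimated with a block within lines. With the IL-6 virus as reference, 1453 became 911 with the replicate block, 10679 with array weights (6659 positive, 4020 negative), 655 at 0.01 and 294 at 2-fold. It was 117 positive and 1238 negative when centred. Leaving out 1 array gave 848 to 2041: 907 without JHOC9 SPINK1 KD replicate b, 921 and 940 without JHOC5 SPINK1 KD replicates d and e, and 848 without JHOC5 IL-6 KD replicate c. The causes were not tested.

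TC01002412.hg.1, TC03000846.hg.1, TC06001338.hg.1 and TC20000868.hg.1 kept their calls in all 35 settings. TC09001842.hg.1 lost its call at 2-fold alone. TC03002064.hg.1 lost it in 16 of the 33 settings without a stricter threshold. No difference of these 6 clusters changed sign. The filter on dim clusters removed 30178, those without 3 arrays above their median; whether falls could be measured in them was not tested.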
